A study of Mus musculus with 16 samples.

Results

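Hypoxia-driven glycolysis genes are the genes that take glucose into the cell, break it down to lactate and export the resulting acid, and that the hypoxia-inducible factor HIF-1 is known to switch on. The 10 genes described here, Hk2, Pfkp, Aldoa, Pgk1, Eno1, Ldha, Slc2a1, Slc16a3, Pdk1 and Car9, were chosen by name, as all probes that carry one of these symbols, and not by their measured values. They had 24 probes and made up 10 of the 37008 genes on the array.

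When oxygen is scarce, the alpha subunit of HIF-1 escapes hydroxylation by prolyl hydroxylases and destruction through the von Hippel-Lindau protein, pairs with ARNT and binds short DNA elements near its target genes. Its targets shift cells from burning pyruvate in mitochondria to making lactate. Pancreatic tumours are known for dense stroma, poor perfusion and hypoxia, and tumour cells, stromal cells and infiltrating myeloid cells can all express these genes.

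RNA was measured in 16 tumours of an orthotopic pancreatic cancer model, in which cancer cells are grown in the pancreas itself, in female mice of the strain C57BL/6. The 3 groups were vehicle (6 arrays), ADH 503 for 48 h (5 arrays) and ADH 503 for 10 days (5 arrays); the sample titles call the compound LA1. ADH 503 (also written ADH-503) is an activator of CD11b, an integrin chain found on myeloid cells such as neutrophils and macrophages. The vehicle arrays have no time of their own and served as the control of both times, and the labels name neither the injected cell line nor the age of the mice. The labels do not say that each sample came from its own mouse, so the p-values measure only the spread between these samples. Vehicle replicate 2 and 48 h replicate 5 carry the same ID number in their titles, and results that rest on them are also given without both.

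All 24 probes were well above background on all 16 arrays and no spot was saturated, so all 10 genes were tested and no value was missing. Each array's 75th percentile of processed signal lay between 4953 and 6736, and 74.9% to 81.2% of its probes were well above background. Values below are log2 signal relative to that percentile, each gene is represented by its probe with the highest mean signal, and the level of one gene cannot be set against that of another because probes differ in their response. Of the markers looked up for the labelled tissue, 20 of 20 of ductal and tumour epithelium and 26 of 26 of pancreatic acinar cells passed the background filter. Of 12 islet markers 8 passed it, and of all 37008 genes on the array 30582 did. The arrays lay on 2 slides, as read from the barcodes in the file headers. Slide 1 carried 1 vehicle array, 4 arrays at 48 h and 3 at 10 days, and slide 2 carried 5 vehicle arrays, 1 at 48 h and 2 at 10 days.

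Because the genes are grouped as HIF targets, the 250 bases before each annotated start were searched for the core of the hypoxia response element, ACGTG or GCGTG, on both strands, so that CACGT and CACGC also count; on CACGTG the matches of both strands overlap. The promoter sequences came from RefSeq on build GRCm38.p6, which held 16 windows for the 10 genes. At least 1 match was found in 14 of the 16 windows and in 10 of 10 genes, against 38.6% of all 32851 windows of the same length and 41.5% of all 27025 genes with a window. The windows of 5 genes are shown, 5′ to 3′ in the direction of the gene. They cover glucose uptake, the payoff steps, lactate formation and acid handling, and Pfkp, the gene whose values followed the rest least. Capitals mark the matches.

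Slc2a1, chr4:119108495-119108744, plus strand: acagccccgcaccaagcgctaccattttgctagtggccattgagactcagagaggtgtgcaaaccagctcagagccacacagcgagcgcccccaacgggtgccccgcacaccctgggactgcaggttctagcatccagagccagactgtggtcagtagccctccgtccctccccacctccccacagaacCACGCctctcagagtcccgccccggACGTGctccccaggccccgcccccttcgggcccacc
Pgk1, chrX:106186850-106187099, plus strand: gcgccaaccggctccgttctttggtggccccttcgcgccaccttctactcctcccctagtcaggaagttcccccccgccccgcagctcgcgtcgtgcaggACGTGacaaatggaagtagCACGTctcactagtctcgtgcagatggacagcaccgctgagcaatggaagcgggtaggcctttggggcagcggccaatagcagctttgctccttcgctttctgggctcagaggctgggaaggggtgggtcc
Ldha, chr7:46845554-46845803, plus strand: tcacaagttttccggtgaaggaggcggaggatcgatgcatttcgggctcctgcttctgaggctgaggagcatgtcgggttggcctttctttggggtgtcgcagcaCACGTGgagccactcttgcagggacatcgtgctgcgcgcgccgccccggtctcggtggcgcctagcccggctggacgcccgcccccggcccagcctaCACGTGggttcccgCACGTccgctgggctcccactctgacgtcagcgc
Car9, chr4:43506776-43507025, plus strand: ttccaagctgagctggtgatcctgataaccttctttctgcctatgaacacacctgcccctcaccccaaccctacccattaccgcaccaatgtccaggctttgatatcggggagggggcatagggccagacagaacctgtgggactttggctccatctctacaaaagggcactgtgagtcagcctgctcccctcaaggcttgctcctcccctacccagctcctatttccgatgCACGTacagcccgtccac
Pfkp, chr13:6648772-6649021, minus strand: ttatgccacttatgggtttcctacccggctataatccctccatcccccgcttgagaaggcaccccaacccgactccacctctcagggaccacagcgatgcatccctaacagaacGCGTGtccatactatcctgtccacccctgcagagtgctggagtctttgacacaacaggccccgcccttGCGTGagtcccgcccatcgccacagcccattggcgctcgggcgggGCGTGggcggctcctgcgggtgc

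Counted in bases from the gene's start, the glucose transporter gene Slc2a1 held matches at -61 and -36, and Pgk1 held them at -150 and -131. The Ldha window held 5 matches, at -145, -144, -48, -47 and -34, of which the first pair and the second pair each come from a palindromic CACGTG. Car9 held 1 match, at -18. Pfkp held 3, at -136, -68 and -23, so the presence of the letters did not set it apart from the other genes. A match is a stretch of letters only, and binding was not measured in these data.

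The plot shows every array's values, and the sentences that follow it take the 10 genes in the order of their roles, from glucose uptake to acid export.

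**Figure D1:**
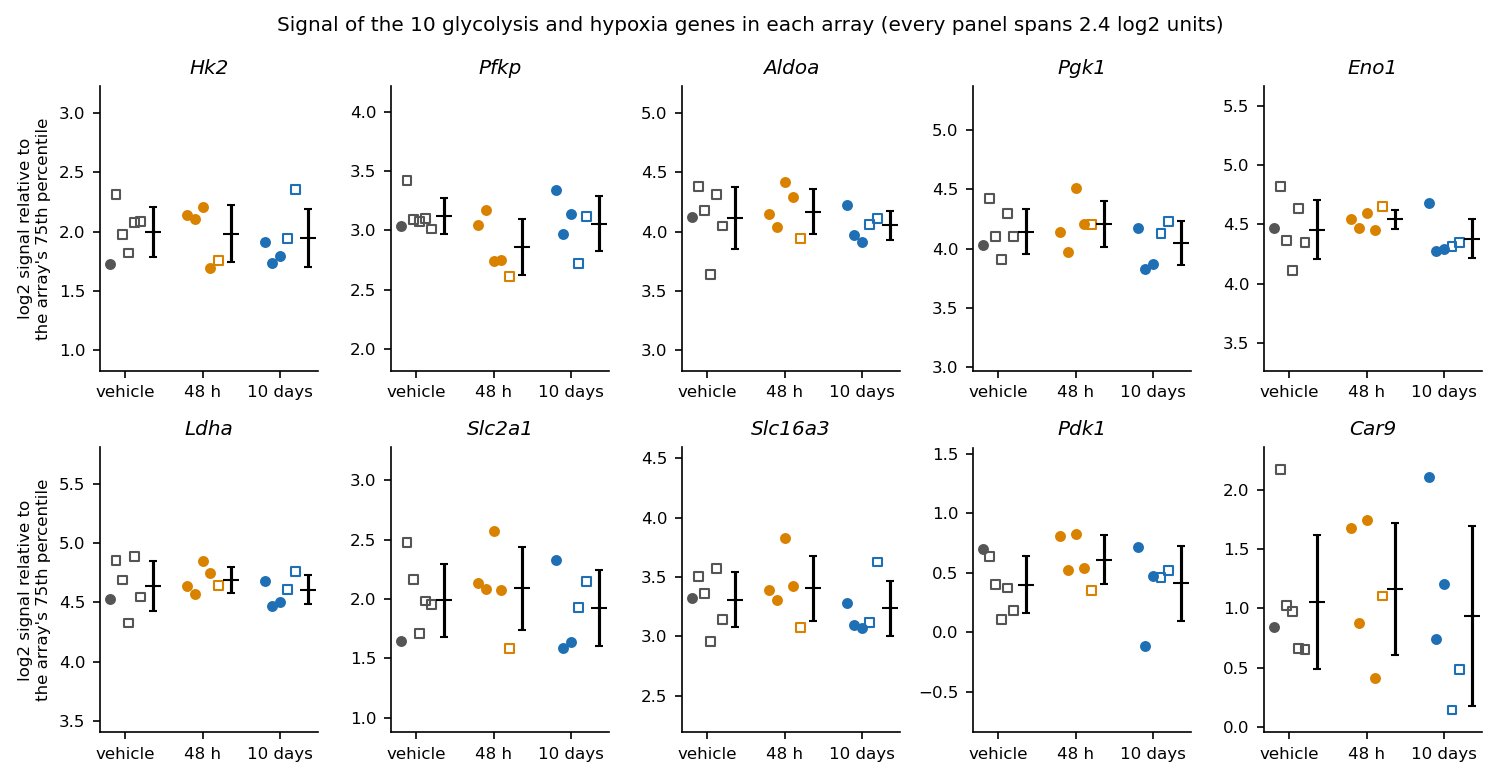
Log2 signal relative to each array's 75th percentile (vertical axes, each spanning 2.4 log2 units) for the 10 genes in vehicle, 48 h and 10 day arrays (horizontal axes); filled circles are arrays of slide 1, open squares arrays of slide 2, and bars show the mean ± SD of a group. The 3 groups overlap for every gene, Car9 spreads widest, from 0.14 to 2.17, and Ldha narrowest, from 4.33 to 4.88.

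Slc2a1 encodes GLUT1, the transporter that brings glucose into most cells. Its vehicle arrays ran from 1.64 to 2.48 with a median of 1.97. At 48 h the values were 2.14, 2.09, 2.57, 2.07 and 1.58, and the 10 day arrays gave 2.33, 1.59, 1.64, 1.93 and 2.15. High and low arrays stood in every group, and the means of 1.99 ± 0.31 (SD, n = 6), 2.09 ± 0.35 (SD, n = 5) and 1.92 ± 0.32 (SD, n = 5) lay within one another's spread.

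Hk2, hexokinase 2, traps glucose inside the cell by phosphorylating it. Its values ran from 1.70 to 2.36 over all arrays, and both ends lay in treated tumours, the lowest in 48 h replicate 4 and the highest in 10 day replicate 5. The group means were 2.0 ± 0.21 (SD, n = 6) in vehicle, 1.98 ± 0.24 (SD, n = 5) at 48 h and 1.95 ± 0.24 (SD, n = 5) at 10 days, a gap smaller than the SD of any group.

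Pfkp, the platelet-type phosphofructokinase, carries out the committed step of glycolysis. Its vehicle arrays lay close together, with a lowest value of 3.01, a median of 3.08 and a highest of 3.42 in replicate 2. The 48 h arrays gave 3.04, 3.17, 2.74, 2.75 and 2.61, and the 10 day arrays gave 3.34, 2.97, 3.13, 2.72 and 3.12. At 48 h 3 of the 5 arrays lay below every vehicle array, and the other two lay among them, so the groups overlapped.

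Aldoa, the aldolase that splits fructose bisphosphate, ran from 3.64 to 4.38 in vehicle with a median of 4.15. Tumours at 48 h gave 4.15, 4.04, 4.42, 4.29 and 3.95, and the 10 day arrays gave 4.22, 3.97, 3.91, 4.06 and 4.11. The widest scatter was within the vehicle group, where the SD was 0.26 (n = 6) against 0.19 (n = 5) at 48 h and 0.12 (n = 5) at 10 days.

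Pgk1 and Eno1 act in the later, energy-yielding steps, phosphoglycerate kinase making the first ATP of the pathway and enolase making phosphoenolpyruvate. Pgk1 ran from 3.83 in 10 day replicate 2 to 4.51 in 48 h replicate 3. Eno1 vehicle arrays ran from 4.11 to 4.82 with a median of 4.41. The 48 h arrays of Eno1 gave 4.54, 4.47, 4.59, 4.45 and 4.65. Its 10 day arrays gave 4.68, 4.27, 4.29, 4.31 and 4.35, so that replicate 1 stood above the other 4, and both sets lay inside the vehicle range.

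Ldha makes lactate from pyruvate and so regenerates the NAD that keeps glycolysis running. Its vehicle arrays ran from 4.33 to 4.88 with a median of 4.62. The 48 h arrays gave 4.63, 4.57, 4.85, 4.75 and 4.65, and the 10 day arrays gave 4.68, 4.47, 4.51, 4.61 and 4.76. Every treated array lay inside the vehicle range, and the whole spread over 16 tumours was 1.47-fold.

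Pdk1, pyruvate dehydrogenase kinase 1, keeps pyruvate out of the mitochondria by switching off pyruvate dehydrogenase. Its vehicle arrays ran from 0.11 to 0.70 with a median of 0.39. After 48 h the arrays gave 0.81, 0.53, 0.83, 0.54 and 0.35, and the 10 day arrays gave 0.72, -0.12, 0.48, 0.46 and 0.52. Both 48 h values above 0.8 exceeded every vehicle array, while the other 3 lay among them, and 10 day replicate 2 was lower than any other tumour.

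Slc16a3 encodes MCT4, which exports lactate with a proton. It ran from 2.95 in vehicle replicate 4 to 3.83 in 48 h replicate 3, with group means of 3.31 ± 0.23 (SD, n = 6), 3.40 ± 0.27 (SD, n = 5) and 3.24 ± 0.23 (SD, n = 5). The order was 48 h, vehicle, 10 days, and no neighbours in it differed beyond their spread.

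Car9 encodes carbonic anhydrase 9, a cell-surface enzyme that handles the acid load and is widely used as a marker of hypoxic tumour areas. Its vehicle arrays ran from 0.65 to 2.17 with a median of 0.91. The 48 h arrays gave 1.67, 0.88, 1.75, 0.42 and 1.1, and the 10 day arrays gave 2.11, 0.75, 1.2, 0.14 and 0.48. Each group held both high and low tumours, and the 4.06-fold span over all arrays was the widest of the 10 genes.

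At 48 h of ADH-503 none of the 10 genes passed the test against vehicle. Their log2 fold changes were small: 8 were above 0, among them Pdk1 at 0.21, Car9 at 0.11 and Slc2a1 at 0.10, and 2 were below 0, Pfkp at -0.26 and Hk2 at -0.017. The lactate-forming and lactate-exporting genes Ldha and Slc16a3 stood at 0.054 and 0.095. None of the 10 had an adjusted p under 0.05 in limma, and neither did any of the 30582 genes tested (0%). None had an unadjusted p under 0.05, against 2.56% of all genes.

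The median log2 fold change of the 10 genes at 48 h was 0.074, and that of all genes tested was -0.013. Among all genes 46.8% were above 0 and 53.2% below. The groups overlapped for all 10 genes, where they did not overlap for 0.141% of all genes. The intervals bound what these arrays could show: the 95% interval was -0.18 to 0.29 for Ldha, -0.20 to 0.33 for Pgk1, -0.31 to 0.51 for Slc2a1 and -0.66 to 0.88 for Car9. Within slide 1 the median of the 10 genes was 0.17, beside 0.072 for all genes, and within slide 2 it was -0.090, beside -0.040, with a single vehicle array on slide 1 and a single 48 h array on slide 2. The pooled median turned to -0.012 without 48 h replicate 3, and it was 0.13 without vehicle replicate 2 and 0.15 without both arrays of the shared ID number.

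Pfkp gave the smallest p of the 10 at 48 h, 0.0693 in limma before adjustment and 1.0 after it. Its mean was 2.86 ± 0.23 (SD, n = 5) against 3.12 ± 0.15 (SD, n = 6) in vehicle, a log2 fold change of -0.26 with an SE of 0.13 and a 95% interval of -0.54 to 0.02. Its value was -0.36 with the slide as a block, where limma gave an unadjusted p of 0.0348, -0.11 within slide 1 and -0.53 within slide 2. The difference was not past the threshold under any setting tried.

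Some marker means of cell types lay away from vehicle at 48 h, among them those of acinar and erythroid cells. The ranges of these means overlapped those of vehicle, and no marker passed. The mean of the 26 acinar markers, digestive enzyme genes of normal pancreas, was 1.02 ± 0.32 (SD, n = 5, range 0.58 to 1.37) at 48 h, 0.12 ± 0.69 (SD, n = 6, range -0.93 to 0.93) in vehicle and -0.095 ± 0.99 (SD, n = 5, range -0.998 to 1.18) at 10 days. The mean of the 12 erythroid markers was -3.69 ± 0.59 (SD, n = 5, range -4.29 to -2.74) at 48 h and -2.73 ± 0.96 (SD, n = 6, range -3.67 to -1.08) in vehicle, with 11 of 12 lower. With the acinar mean as a covariate the median of the 10 genes was 0.16 at 48 h, and still none passed. The part of the erythroid markers in the values was not tested, and in whole-tumour RNA fewer cells of a type and less RNA per cell cannot be told apart.

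At 10 days the 10 genes again lay close to vehicle, and most stood slightly below it. Of the 10, 9 were below 0, from Car9 at -0.12 and Pgk1 at -0.097 to Ldha at -0.032, and Pdk1 stood at 0.0096. None passed the threshold in limma, as for 0% of all genes, and none had an unadjusted p under 0.05, against 3.54% of all genes. The smallest p of the 10 in limma was 0.448, for Pgk1.

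The median over the 10 genes at 10 days was -0.064, beside -0.0086 over all genes, of which 48% were above 0 and 52% below. No gene of the 10 separated the groups, against 0.213% of all genes. The direction of the median rested on single tumours: without vehicle replicate 2, the array highest for these genes, it was 0.0038, with 5 of 10 genes above 0, and leaving out 48 h replicate 5 as well left this value as it was, since that array is in neither group. Within slide 1 it was -0.014, below the 0.13 of all genes, and within slide 2 it was -0.0027, above the -0.050 of all genes, so its place against all genes turned between slides. The 95% interval was -0.27 to 0.21 for Ldha, -0.40 to 0.25 for Slc16a3 and -0.89 to 0.65 for Car9.

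At 10 days the marker means of most other cell types stood below vehicle as well, though no marker passed. The erythroid mean was -3.72 ± 0.23 (SD, n = 5), again with 11 of 12 markers lower. The granulocyte mean was -0.044 ± 0.40 (SD, n = 5) at 10 days against 0.53 ± 0.36 (SD, n = 6) in vehicle, with 15 of 16 markers lower. The mean of ductal and tumour epithelium was -0.70 ± 0.89 (SD, n = 5) against -0.30 ± 0.68 (SD, n = 6), with 19 of 20 lower. T cell markers stood at -0.44 against -0.24, endothelium at -3.22 against -2.96 and fibroblasts at -0.68 against -0.58, whereas macrophage markers stood at 3.58 against 3.53. Their part in the values of the 10 genes was not tested.

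Set directly against 48 h, the 10 day tumours gave lower means for 9 of the 10 genes. The log2 fold changes ran from Car9 at -0.23, Pdk1 at -0.20 and Slc16a3 at -0.17 to Hk2 at -0.035, and Pfkp alone was above 0, at 0.19. None passed in limma, as for 0% of all genes, and none had an unadjusted p under 0.05, against 3.47% of all genes. The groups overlapped for all 10 genes and did not overlap for 0.504% of all genes.

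The median of the 10 genes was -0.16 between 10 days and 48 h, beside 0.0048 over all genes, of which 51.1% were above 0 and 48.9% below. It was -0.21 within slide 1, beside 0.040 for all genes, and 0.14 within slide 2, beside -0.018, where a single 48 h array stands against 2 of the 10 day arrays. The comparison shares its 48 h arrays with the first comparison and its 10 day arrays with the second, so the 3 sets of values are not independent. Without 48 h replicate 3 the median was -0.057. The plot of the differences shows every interval.

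**Figure D2:**
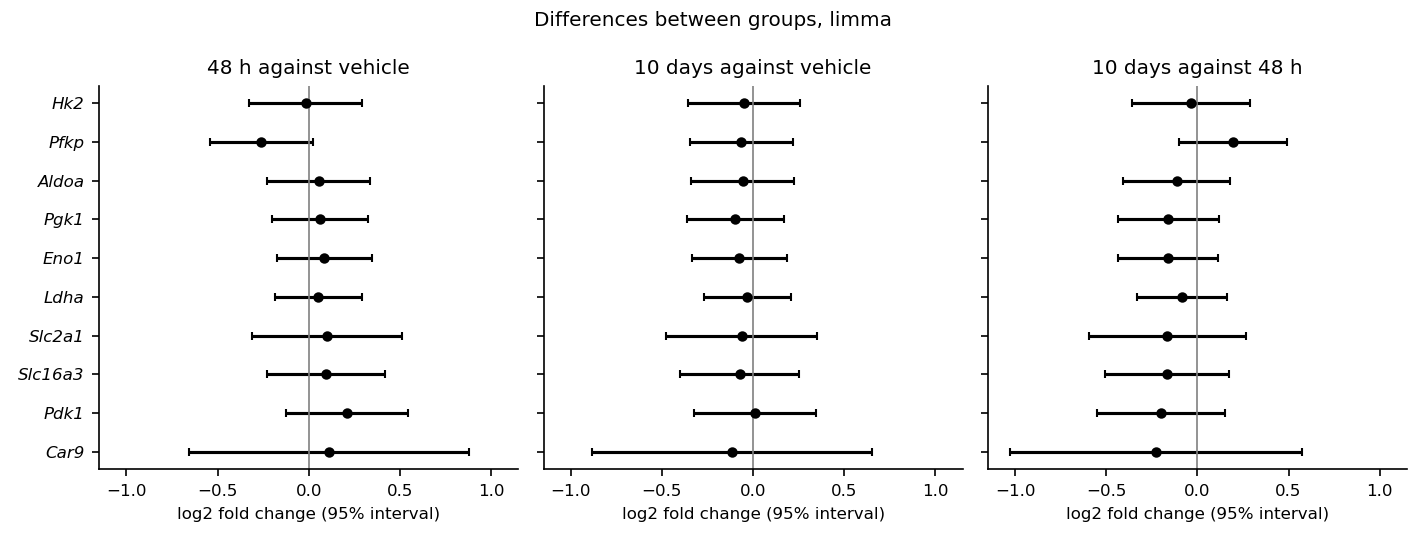
Log2 fold change (horizontal axes) of each of the 10 genes (rows) in the 3 comparisons, one panel each; points are limma estimates and bars 95% intervals. Every interval includes 0; the nearest to leaving it out is Pfkp at 48 h, -0.54 to 0.02, and the widest are those of Car9.

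Most of the variation in these genes lay within the groups. The share of variance between the 3 groups ran from 1.07% for Hk2 to 26.0% for Pfkp, with a median of 6.95%, and the median over all genes tested was 8.27%. The SD over the 16 arrays had a median of 0.22 for the 10 genes, beside 0.32 for all genes. Ldha was among the steadier genes, with a smaller SD than all but 7.43% of genes, whereas 79.8% of genes had a smaller SD than Car9.

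What did vary was the level of the whole set from tumour to tumour. Each gene was centred on its own mean over the 16 arrays, and the 10 deviations of an array were averaged. Vehicle replicate 2 had the highest mean deviation, 0.38, with 10 of 10 genes above their own mean. It was followed by 48 h replicate 3, at 0.31 with 9 of 10, and 10 day replicate 1, at 0.23 with 8 of 10. The lowest were 10 day replicate 2, at -0.26 with 0 of 10 above, and vehicle replicate 4, at -0.26 with 1 of 10. High and low tumours therefore stood in all 3 groups, and the group means of the deviation were 0.0039 ± 0.22 (SD, n = 6) in vehicle, 0.054 ± 0.18 (SD, n = 5) at 48 h and -0.058 ± 0.20 (SD, n = 5) at 10 days.

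**Figure D3:**
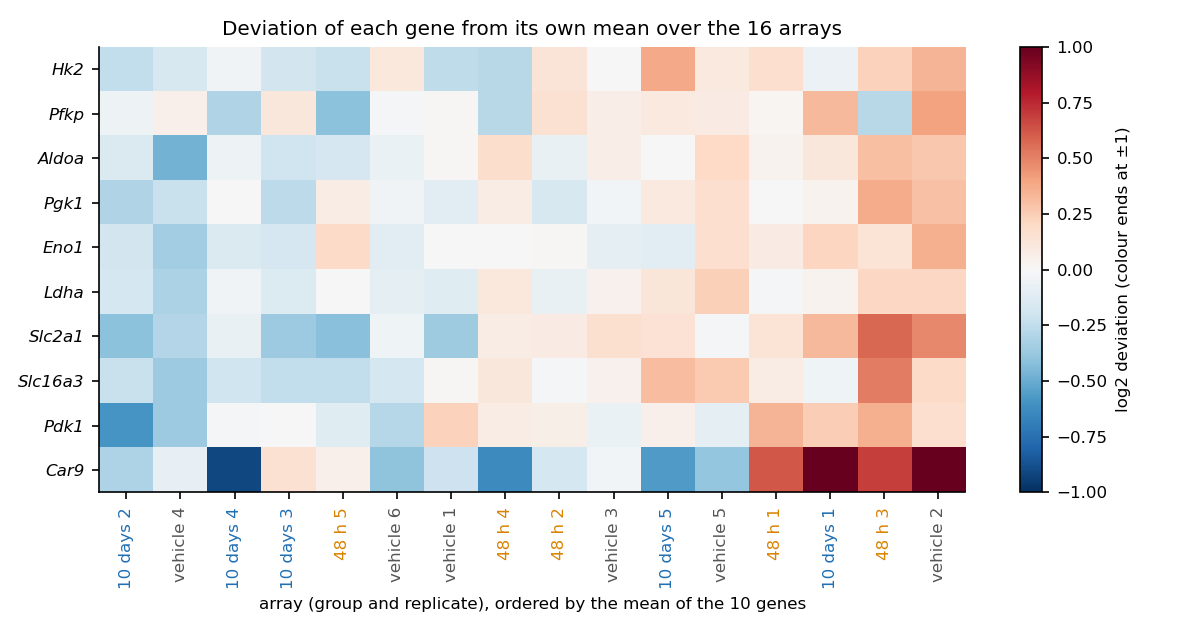
Log2 deviation of each of the 10 genes (rows) from its own mean over 16 arrays, in colour, with the arrays (columns) ordered by the mean of the 10 genes; the colour scale ends at ±1. Vehicle 2 on the right is above the mean for all 10 genes and 10 days 2 on the left for 0 of them, and each end of the order holds arrays of more than one group.

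The 10 genes moved together across tumours. Over the 45 pairs of genes the median Pearson r across 16 arrays was 0.57 and the median Spearman rho 0.51, and 44 pairs were above 0. The closest pair was Aldoa and Ldha, at r = 0.90 and rho = 0.84. Pgk1 and Ldha stood at r = 0.89 and rho = 0.94, and Ldha and Slc16a3, which make and export lactate, at r = 0.85 and rho = 0.84. These are descriptions over 16 arrays, and the genes of an array share its RNA, labelling and scaling.

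Pairs of genes in general showed far less of this. The median r over all pairs of tested genes was 0.025, and 3.67% of pairs reached the median of the 10 genes. Among the 8954 genes at least as bright as the dimmest of the 10, the median was 0.077 and 7.95% of pairs reached it.

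The co-variation was also present inside the groups. With each group's mean removed the median r of the 45 pairs was 0.56. It was 0.62 within slide 1, 0.64 within slide 2, 0.58 without both arrays of the shared ID number and 0.51 in the authors' quantile-normalized values. Each of these values differs from the pooled one by less than 0.1.

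Pfkp followed the rest least. The 36 pairs without it had a median r of 0.62, the lowest at 0.25, while the 9 pairs with it had a median of 0.13 and ran from -0.087 with Pgk1 to 0.48. With group means removed the 9 pairs had a median of 0.40, all above 0, beside 0.62 for the 36. Their median was -0.080 without both arrays of the shared ID number and 0.051 in the authors' quantile-normalized values. Against the mean of the other 9 genes, Slc2a1 correlated at r = 0.86, Aldoa at 0.83, Ldha at 0.82, Pgk1 at 0.81 and Slc16a3 at 0.80. Eno1 followed at 0.75, Pdk1 at 0.67, Hk2 at 0.65 and Car9 at 0.52, and Pfkp came last at 0.22. By rho Pfkp was last too, at 0.31, but close to Car9 at 0.34. The placing of Pfkp depended on the slide, since its 9 pairs had a median r of -0.16 within slide 1 and 0.46 within slide 2. In 48 h replicate 3, where 9 genes were above their mean, Pfkp was 0.28 below its own.

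Of the 10 genes 7 had more than 1 probe, so their values could be compared between probes. The array's annotation places the probes on build mm9, and 3 of them cross an exon junction, since their alignment spans more of the genome than the 60 bases of a probe. These 3 are printed because each reads spliced messenger RNA directly, in 3 genes whose probes differed.

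Pfkp, chr13:6581718-6583872, minus strand: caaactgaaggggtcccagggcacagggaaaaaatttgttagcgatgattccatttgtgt
Eno1, chr4:149618134-149618359, plus strand: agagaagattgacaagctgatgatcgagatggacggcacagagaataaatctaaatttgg
Pdk1, chr2:71721635-71721929, plus strand: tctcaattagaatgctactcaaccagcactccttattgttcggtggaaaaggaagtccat

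The Pfkp probe spans 2155 bases of genome, the Eno1 probe 226 and the Pdk1 probe 295. Pfkp had 5 probes. The brightest, at chr13:6588296-6588355, is annotated to a predicted transcript and correlated at r = 0.22 with the mean of the other 9 genes. The junction probe printed above and a second probe of the curated transcript gave -0.070 and 0.13, and the remaining pair gave -0.39 and -0.23. At 48 h the junction probe of Pfkp had a log2 fold change of -0.12, and all 5 probes were below 0, from -0.31 to -0.051. None of the 5 passed in limma.

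Among the other genes, some probes agreed closely and others did not. The 2 Car9 probes correlated at r = 0.86, and the second gave 0.019 at 48 h and -0.12 at 10 days. The second Pgk1 probe was drawn from a cDNA clone and lies on the opposite strand to the gene, yet correlated at r = 0.83 with the first. The junction probe of Eno1 correlated at 0.76 with the mean of the other genes, as did its brightest probe at 0.75, while its remaining probe stood at 0.45 and correlated at 0.21 with the brightest. Of the 5 Pdk1 probes the brightest stood at 0.67 and the junction probe at 0.64, whereas the dimmest, on another transcript model, stood at 0.11. At 10 days the log2 fold changes of the 5 Pdk1 probes ran from 0.0096 for the brightest to 0.55 for the dimmest. The dimmest had an unadjusted p of 0.0355 in limma fitted over probes, and did not pass after adjustment. With the mean of all its probes Pdk1 stood at 0.18 at 10 days. The dim second probe of Slc16a3 correlated at only 0.078 with the first, and with the mean of both the 48 h value of Slc16a3 became -0.24.

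**Figure D4:**
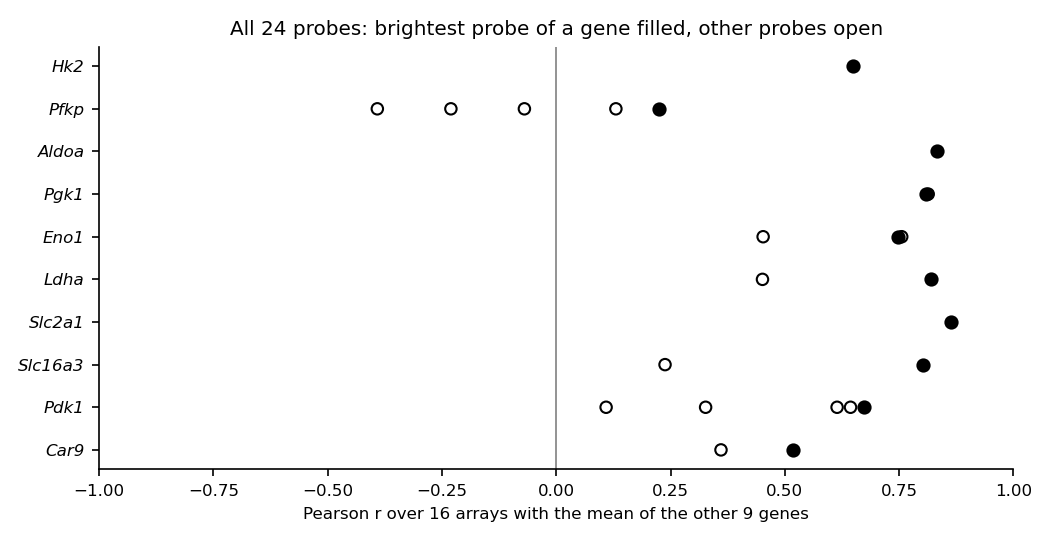
Pearson r over 16 arrays between each of the 24 probes and the mean of the other 9 genes (horizontal axis), by gene (rows); filled points are the brightest probe of a gene, open points its other probes. All probes outside Pfkp lie above 0, from 0.11 to 0.86, and the 5 Pfkp probes run from -0.39 to 0.22.

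The mean of the other glycolysis genes followed the same tumour-to-tumour pattern, and, like the 10 genes, none of them passed between the groups. Of 31 tested genes of the pathway outside the set, 0 passed in limma in any of the 3 comparisons, with 21 above 0 at 48 h and 14 below 0 at 10 days, and medians of 0.043 and 0.023; the medians of all genes given above apply to this and the following lists. The 3 with the smallest p against vehicle were Pgam2, a muscle-type phosphoglycerate mutase, Slc2a3, the high-affinity glucose transporter GLUT3, and Slc16a1, the lactate transporter MCT1. Pgam2 stood at -0.19 at 48 h and 0.18 at 10 days. Slc2a3 stood at 0.14 and 0.23, and Slc16a1 at -0.037 and -0.25.

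The mean of these 31 genes correlated at r = 0.93 and rho = 0.91 with the mean of the 10 over 16 arrays. Without the 2 arrays farthest from the median, vehicle replicate 2 and 48 h replicate 3, r was 0.89. In the authors' quantile-normalized values it was 0.80. Single genes varied, with a median r of 0.21: 9 of 31 had r above 0.5, against 10.2% of all genes. Picked after their values were seen, the highest were Pgam1 at 0.90, Pkm and Gpi1 at 0.87 each and Gapdh at 0.80, the isoforms most cells use, while Slc16a7, another monocarboxylate transporter, stood at -0.58.

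The mean of other HIF targets followed the 10 genes too. Of 37 tested genes 0 passed, 20 were above 0 at 48 h and 23 below 0 at 10 days, with medians of 0.023 and -0.056. Bhlhe40, a transcriptional repressor, stood at -0.14 at 48 h and -0.28 at 10 days, where its 95% interval was -0.56 to 0.00099. Plod1, a collagen lysyl hydroxylase, stood at 0.30 and 0.12, and Hilpda, which controls lipid droplets in hypoxia, at -0.0072 and -0.47. Against 48 h, 27 of the 37 were lower at 10 days, with a median of -0.10.

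The mean of the 37 targets correlated at r = 0.90 and rho = 0.89 with the mean of the 10. The r was 0.81 without the 2 farthest arrays and 0.92 in the authors' quantile-normalized values. Their r was above 0.5 in 22 of 37, against 10.2% of all genes. Picked after their values were seen, the highest were Ndrg1 at 0.89 and P4ha2, a collagen prolyl hydroxylase subunit, at 0.87. Picked the same way, the next were Egln1, the prolyl hydroxylase PHD2, at 0.85, Ero1a at 0.85, Bhlhe40 at 0.82 and Bnip3 at 0.81. Also picked after their values were seen, Vegfa, the main angiogenic target, stood at 0.50, and Adm and Hmox1 at 0.07 and 0.08. Tfrc, picked likewise as the lowest of the 37, stood at -0.23.

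The 15 genes that regulate HIF itself gave a mean with r = 0.83 and rho = 0.62. The r was 0.66 without the 2 farthest arrays and 0.61 in the authors' quantile-normalized values. Hif1a stood at 0.70, Epas1, which encodes HIF-2 alpha, at 0.63, and Ep300, a coactivator, at -0.58, again picked after their values were seen; Egln1 and Egln3 belong to this list and to the targets. None passed, with 11 above 0 at 48 h and 11 at 10 days. Hif3a stood at 0.14 and 0.35, Siah2 at -0.24 and -0.16, and Arnt at 0.084 and 0.15.

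**Figure D5:**
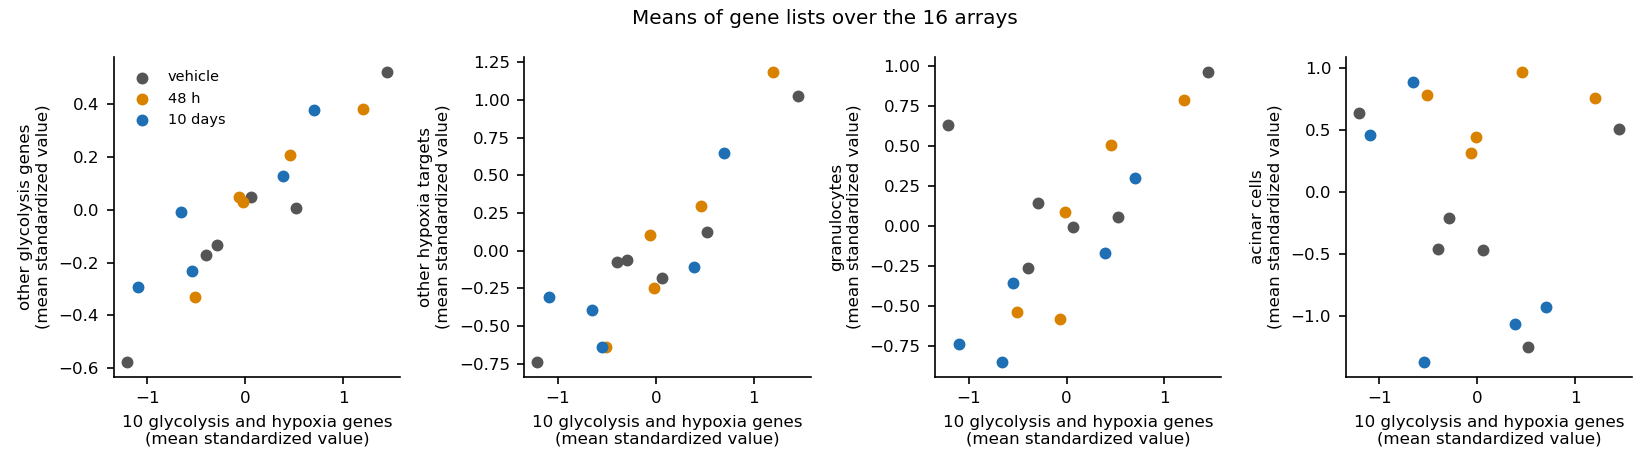
Mean standardized value of 4 gene lists (vertical axes) against that of the 10 genes (horizontal axes) over 16 arrays, coloured by group; each point is 1 array. The other glycolysis genes and the other hypoxia targets follow the 10 genes, at r = 0.93 and 0.90, granulocyte markers do so less, at 0.63, and acinar markers do not, at -0.10.

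The list means of pathways that handle pyruvate differently followed the set less. Pyruvate dehydrogenase and its regulators, 13 tested genes, had r = 0.045 between list mean and the 10 genes, which was -0.26 in the authors' quantile-normalized values, and 0 of the 13 exceeded 0.5. The 3 named by the smallest p were Pdk2, a second kinase of the complex, at 0.30 at 48 h and 0.28 at 10 days, Pdp1, its phosphatase, at 0.066 and 0.30, and Pcx, pyruvate carboxylase, at 0.49 and 0.39. None passed.

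Oxidative phosphorylation subunits, 29 tested genes, had r = 0.41 for the list mean, which was 0.19 in the authors' quantile-normalized values. Taken singly these genes did not follow less than the other glycolysis genes. Their median r was 0.44, beside 0.21, and 7 of 29 exceeded 0.5. Their log2 fold changes were above 0 in 21 of 29 at 48 h and below 0 in 24 of 29 at 10 days. The medians were 0.025 and -0.057, and none passed. Cyc1 stood at -0.033 and -0.22, Atp5a1 at 0.045 and -0.16, and Cycs, cytochrome c, at -0.12 and -0.22.

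The other carbonic anhydrases and acid transporters, 15 tested genes, had r = 0.63, which was 0.43 without the 2 farthest arrays, and did not pass either. Car14 stood at -0.051 at 48 h and 0.48 at 10 days, Car15 at -0.51 and 0.13, and Car2, a cytosolic enzyme, at -0.092 and -0.74. The unadjusted p in limma was 0.0210 for Car14 at 10 days and 0.0307 for Car15 at 48 h, both with an adjusted p of 0.99998.

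Over the 18207 named genes above background on every array, those most like the mean of the 10 were Mif at r = 0.93, Olfr324 at 0.93, Tnks2 at 0.92, Cacng6 at 0.91, Pgam1 at 0.90, Vdac1 at 0.90, Laptm4b at 0.90 and Uba1 at 0.90. Mif encodes a cytokine, Vdac1 the main channel of the outer mitochondrial membrane and Uba1 the ubiquitin-activating enzyme. All 8 kept r of at least 0.79 in the authors' quantile-normalized values, and 0 of them passed in any comparison. Mif ran from 3.04 to 3.92 over the arrays and stood at 0.11 at 48 h and -0.052 at 10 days.

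Cell type markers followed the 10 genes to different degrees. The mean of 16 granulocyte markers had r = 0.63 and rho = 0.62, which was 0.36 without the 2 farthest arrays, 0.87 within slide 1 and 0.40 within slide 2. T cell markers stood at 0.44, ductal and tumour epithelium at 0.37, proliferation genes at 0.30, macrophages at 0.29 and fibroblasts at 0.15. Without the 2 farthest arrays, epithelium stood at 0.053 and fibroblasts at -0.39. Erythroid markers stood at 0.047, islet markers at -0.082, acinar markers at -0.10 and endothelium at -0.12. Reference genes, chosen as steady housekeeping genes, stood at 0.33, and at -0.25 in the authors' quantile-normalized values, so the sign of that relation changed with the scaling, as did that of macrophages, at -0.26, and of erythroid markers, at -0.019. The part of any of these in the level of the 10 genes was not tested.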

How the data were processed

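Total RNA of 16 tumours was amplified as cDNA, labelled with Cy5 and hybridized to Agilent mouse arrays, per the labels' protocols. Per the submitters' processing notes, images were read with version 11.5.1.1 of Agilent Feature Extraction. Per the file headers, the deposited intensity of a spot is linear, has its background subtracted and its surface trend removed, is replaced by a surrogate where dim, and is not scaled between arrays. The authors also deposited a quantile-normalized table of log2 values, in which sorted columns agree to within 0.0043 and a column correlates with its own array at r of 0.998 or more; it served as an alternative, and 0 of its columns lacked a sample. How the authors tested the data is not given in the sources used here.

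From the intensities, control and outlier spots were removed, spots of a probe averaged, log2 taken and the array's 75th percentile, taken over all its probes, subtracted. Probes were named through RefSeq's mouse genes on assembly GRCm38.p6 (32994 by accession, 10744 by symbol or synonym), and 12867 kept the file's name. The probe with the highest mean stood for its gene, and 30582 of 37008 genes, well above background on at least 5 arrays, entered the test in limma 3.58.1 (R 4.3.3; 3 groups in 1 model, robust eBayes, 2-sided p, Benjamini-Hochberg over all genes, threshold 0.05). The script was tested on simulated data. The number of arrays and the spread between tumours limit the precision.

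The 10 genes, the lists and the tests were chosen with earlier results of these data known. Beside the 10 genes, the text names the 3 genes of each pathway list with the smallest p against vehicle and the 8 named genes above background on all arrays with the highest r to the mean of the 10; other names say that they were picked after their values were seen. For that mean each gene was centred and divided by its SD over the arrays. Correlations carry no p because the genes were not chosen blind. Alternatives were the authors' table, quantile normalization, normexp background correction with an offset of 50, other probe filters, the mean of all probes, the slide as a block or alone, the acinar marker mean as a covariate, only the groups compared, an intensity trend, and leaving out arrays. The other probe of Car9 was added after seeing the data. Replicate numbers follow the order of the samples and pair nothing.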

Additional observations from a re-analysis of the deposited data

Results flagged for a closer look

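In 3 of the 30 sets of values formed by a gene and a group, 1 array stood apart from the others of its group by Dixon's criterion, which by chance flags about 1 in 20 sets. Vehicle replicate 2 stood apart for Pfkp, at 3.42 log2 units relative to the array's 75th percentile, and for Car9, at 2.17; this array was also above the mean for all 10 genes and carries the ID number that 48 h replicate 5 carries too. The 10 day replicate 1 stood apart for Eno1, at 4.68, and was above the mean for 8 of the 10 genes.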

How the results depend on the processing

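None of the 10 genes passed in limma in any comparison under any of the 31 settings beside the one reported, with adjusted p of 0.615 or more; no effect past the threshold could therefore be lost, and the directions below belong to values that did not pass. Of 930 fold changes recomputed, 72 changed sign, and the cause was not tested. The number of genes past the threshold was 1 at 48 h and 1 at 10 days with no filter on dim probes, 3 for 10 days against 48 h when only the groups compared were fitted, and 0 to 1 in each comparison with 1 array left out; no member was among them. The median of the 10 genes for 10 days against 48 h was 0.14 within slide 2.

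Signs changed as follows, in the order 48 h, 10 days and 10 days against 48 h where several are given. With the acinar covariate Car9 was -0.21 at 48 h and 0.17 against 48 h, Hk2 0.053 at 48 h and Pdk1 -0.0077 at 10 days. With the mean of all probes Slc16a3 was -0.24 at 48 h and 0.067 against 48 h. Within slide 1 Hk2 was 0.32 at 48 h and 0.089 at 10 days, Pdk1 -0.026 and -0.34, Car9 0.51 at 10 days and 0.17 against 48 h, and at 10 days Ldha was 0.025, Pfkp 0.11 and Slc2a1 0.21. Within slide 2 the 48 h values were -0.17 for Aldoa, -0.014 for Ldha, -0.23 for Slc16a3 and -0.48 for Slc2a1, the 10 day values 0.10 for Hk2, 0.027 for Ldha, 0.014 for Pgk1 and 0.064 for Slc16a3, and those against 48 h 0.14 for Aldoa, 0.39 for Hk2, 0.040 for Ldha, 0.14 for Pdk1, 0.30 for Slc16a3 and 0.46 for Slc2a1. With the slide as a block Car9 was -0.14 and Hk2 0.084 at 48 h, and Hk2 0.02, Ldha 0.0028 and Pdk1 -0.053 at 10 days. Without both arrays of the shared ID number Hk2 was 0.10 at 48 h, and at 10 days Car9 was 0.11, Hk2 0.01, Ldha 0.011 and Slc2a1 0.03.

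With each array left out in turn, the 48 h values ran from -0.039 to 0.11 for Aldoa, -0.036 to 0.33 for Car9, -0.074 to 0.055 for Hk2, -0.0085 to 0.10 for Ldha, -0.013 to 0.12 for Pgk1, -0.011 to 0.18 for Slc16a3 and -0.019 to 0.23 for Slc2a1. The 10 day values ran from -0.41 to 0.11 for Car9, -0.15 to 0.012 for Hk2, -0.094 to 0.017 for Ldha, -0.068 to 0.14 for Pdk1, -0.14 to 0.019 for Pfkp and -0.16 to 0.035 for Slc2a1, and Hk2 against 48 h from -0.14 to 0.022. No paired analysis was possible because replicate numbers were given in sample order and only name the arrays. With 5 or 6 arrays a group, the 95% intervals of the 10 genes against vehicle reach as far as -0.89 to 0.88 log2 units (Car9). All 24 probes were above background on every array, and the part of probe brightness in the intervals was not tested.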
